A study of Spinacia oleracea with 6 samples.

Results

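In spinach, Spinacia oleracea, 4 phosphoribosyl diphosphate synthase genes were compared between plants grown in heat and plants grown at a moderate temperature. No search for further copies was run, so the family total and shares below are those of these 4 genes. The genes are prs1 (gene number 110793298), prs2 (110792433), prs3 (110799228) and prs4 (110783966), which are 4 of the 32450 genes in the deposited tables, and all 4 passed the filter on low counts that left 20145 tested genes. They were chosen by gene number, with their values in this same comparison already known, above all the high level of prs2 in heat and the change in which gene leads the family. Their levels, shares and fold changes are therefore given as a description, with no p-value, and the count of members that passed a threshold supports nothing.

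The study looked for genes that respond to heat, among them genes that may bear on resilience. Heat plants had days of 35 °C and nights of 25 °C, and control plants had days of 20 °C and nights of 15 °C. The regimes lasted 4 days, in an illumination incubator. Each group had 3 libraries made from total RNA and sequenced on an Illumina system. The labels name neither the cultivar, the age of the plants nor the tissue, and they do not say whether each library was made from its own plants, so the spread between libraries may be technical.

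Phosphoribosyl diphosphate synthase transfers a diphosphate group from ATP to ribose 5-phosphate. The product, phosphoribosyl diphosphate (PRPP), is the ribose donor for purine, pyrimidine and pyridine nucleotides and for the amino acids histidine and tryptophan, both in their synthesis and, for the bases, in their salvage. In spinach the family is known to hold a class that needs inorganic phosphate for activity (the products of prs1 and prs2) and a class that does not (the products of prs3 and prs4). The prs2 product is imported into chloroplasts, while from its sequence the prs3 product is thought to be mitochondrial and the prs4 product cytosolic. The genes were matched to these names through the synonyms of the BTI_SOV_V1 gene table, and no protein or promoter sequence was used here.

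Total counts were 42.3 to 48.0 M per heat library and 48.4 to 56.8 M per control library, so that 1 read was worth 0.0176 to 0.0236 CPM (reads scaled to a common library size). Genes that mark green tissue were read well in both groups: all 7 of the list (rbcS2, psaL, psbS, lhcb1.3, PETE, gapA and GOX) were tested, and their summed level was 3699 to 4198 CPM in heat and 22756 to 23965 CPM in control. All 7 fell in heat by edgeR's quasi-likelihood test, where 13.6% of all tested genes did. Their median log2 fold change was -2.62, against 0.01 over all tested genes. In bulk RNA, fewer cells of a type and less RNA per cell cannot be told apart, and the part of this difference in the values below was not tested.

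prs2, which encodes the chloroplast enzyme, was the gene of the family whose level differed most between the groups. It had 55920, 41483 and 35054 reads in heat libraries 1 to 3 and 3125, 2163 and 1135 reads in control libraries 1 to 3. As FPKM, which divides the reads by gene length and by the library total, these were 671, 543 and 477 in heat and 33.6, 21.9 and 13.5 in control. The lowest heat library stood 14.2-fold above the highest control library on this scale. On the TMM scale, which corrects CPM for differences in library composition, prs2 averaged 837 ± 174 CPM in heat and 46.0 ± 16.9 CPM in control (SD, n = 3 each).

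The log2 fold change of prs2 in the fit over all genes was 4.19 (SE 0.34), an 18.2-fold difference between the group means. Of the 20145 tested genes, 176 had a greater log2 fold change, and among the 10769 tested genes with a mean of at least 10 CPM, 44 did. By the difference in mean CPM, 22 genes gained more. Sorted by FPKM within a library, prs2 was at place 110, 166 and 171 of all genes in heat libraries 1 to 3 and at place 2950, 4071 and 5814 in control libraries 1 to 3. It took 0.0828% to 0.116% of all reads of a heat library and 0.00235% to 0.00584% of those of a control library.

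prs1 encodes the other phosphate-dependent enzyme, and its level showed none of this rise. It had 1936, 1618 and 1550 reads in heat and 2402, 2401 and 1665 reads in control. Its FPKM was 22.4, 20.4 and 20.4 in heat and 25.0, 23.5 and 19.1 in control, so the groups overlapped on this scale. On the TMM scale they did not overlap, with 32.3 ± 2.90 CPM in heat and 47.4 ± 2.72 CPM in control, and the log2 fold change was -0.55 (SE 0.13). When libraries were scaled by their size alone, the log2 fold change was -0.10.

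prs3, whose product is thought to be mitochondrial, was the least abundant of the family in all 6 libraries. It had 167, 124 and 200 reads in heat and 386, 384 and 187 reads in control, and the lowest count, 124, has a 95% counting interval of 103 to 148 reads. Its FPKM was 2.14, 1.73 and 2.91 in heat and 4.43, 4.16 and 2.38 in control. Heat library 3 stood above control library 3 on the FPKM scale, so the groups overlapped there, while on the TMM scale they did not, at 3.10 ± 0.624 CPM in heat and 6.89 ± 1.66 CPM in control. The log2 fold change was -1.15 (SE 0.29), and -0.70 with scaling by library size alone.

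prs4, the phosphate-independent member thought to be cytosolic, was higher in every heat library than in any control library on each scale used. It had 4150, 4324 and 3322 reads in heat and 2634, 2912 and 2139 reads in control. Its FPKM was 56.0, 63.6 and 50.8 in heat and 31.9, 33.2 and 28.6 in control. On the TMM scale it averaged 75.1 ± 12.8 CPM in heat and 56.6 ± 2.72 CPM in control, with a log2 fold change of 0.41 (SE 0.16) that was 0.86 under library size alone.

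**Figure D1:**
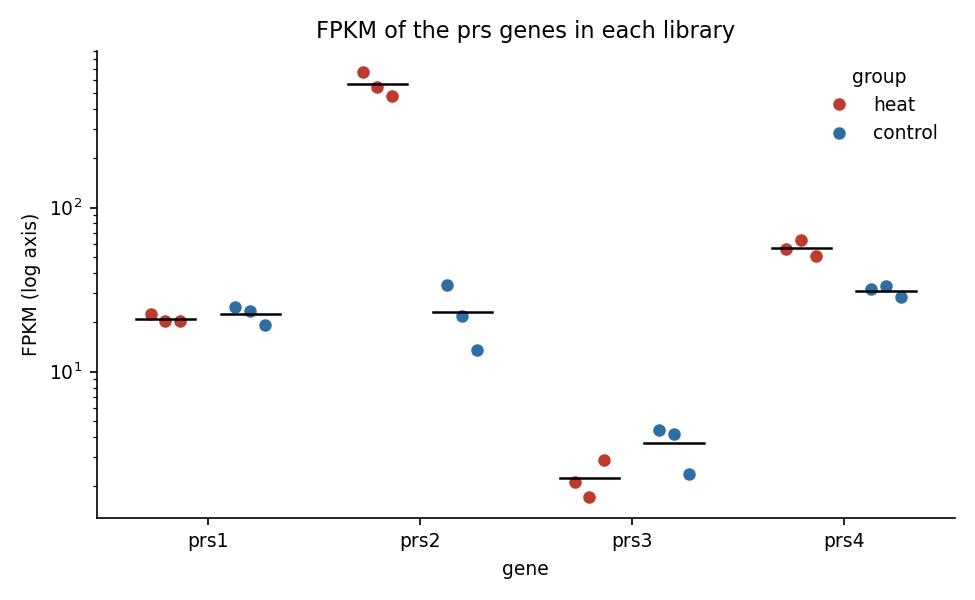
FPKM of prs1 to prs4 (log axis) in each of 3 heat libraries (red, left of each pair) and 3 control libraries (blue, right), with points in the order of replicate number and black bars at the group means. prs2 lies between 477 and 671 FPKM in heat and between 13.5 and 33.6 FPKM in control, while prs3 stays below 5 FPKM in every library.

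Over the family, 1 member (prs2) lay above and 2 (prs1 and prs3) below the level in control past an adjusted p of 0.05 in the edgeR fit over all genes, which restates the values they were chosen on and is read no further. As description only, the prs2 call held in every alternative fit run, while the prs1 and prs3 calls did not. Those fits reuse the libraries on which the members were chosen, so they lend no call support. Of all tested genes, 25.2% passed, 11.6% as higher and 13.6% as lower in heat. All 4 members had heat and control libraries that did not overlap on the TMM scale, as had 45.2% of all tested genes. The median log2 fold change was -0.07 over the members and 0.01 over all tested genes.

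**Figure D2:**
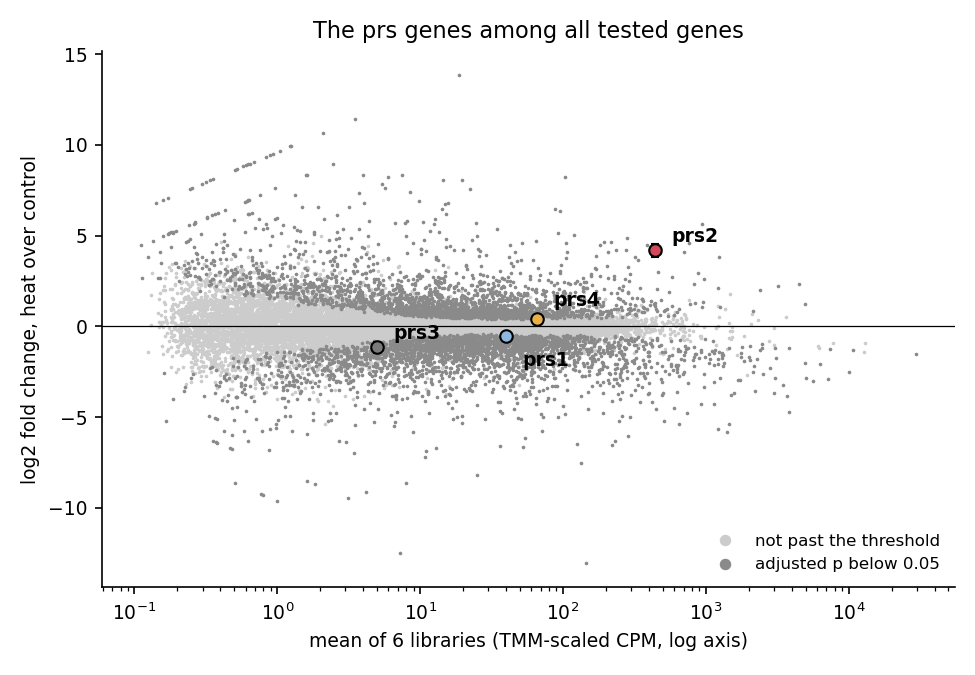
Log2 fold change of heat over control against mean level (TMM-scaled CPM, log axis) for 20145 tested genes (grey, darker where the adjusted p is below 0.05) and for prs1 to prs4 (coloured, with SE bars). prs2 lies at a log2 fold change of 4.19, while prs1, prs3 and prs4 lie between -1.15 and 0.41.

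The size of the fold change depended on how the libraries were scaled. Scaling by library size alone put the median over all tested genes at a log2 fold change of 0.47, against 0.01 with TMM scaling, and the 4 members moved the same way as that median. DESeq2, with its own size factors, gave log2 fold changes of -0.55, 4.18, -1.16 and 0.41 for prs1 to prs4, close to those of edgeR. Leaving out each library in turn moved prs1 to between -0.61 and -0.48, prs2 to between 3.96 and 4.51, prs3 to between -1.34 and -1.02 and prs4 to between 0.28 and 0.52.

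**Figure D3:**
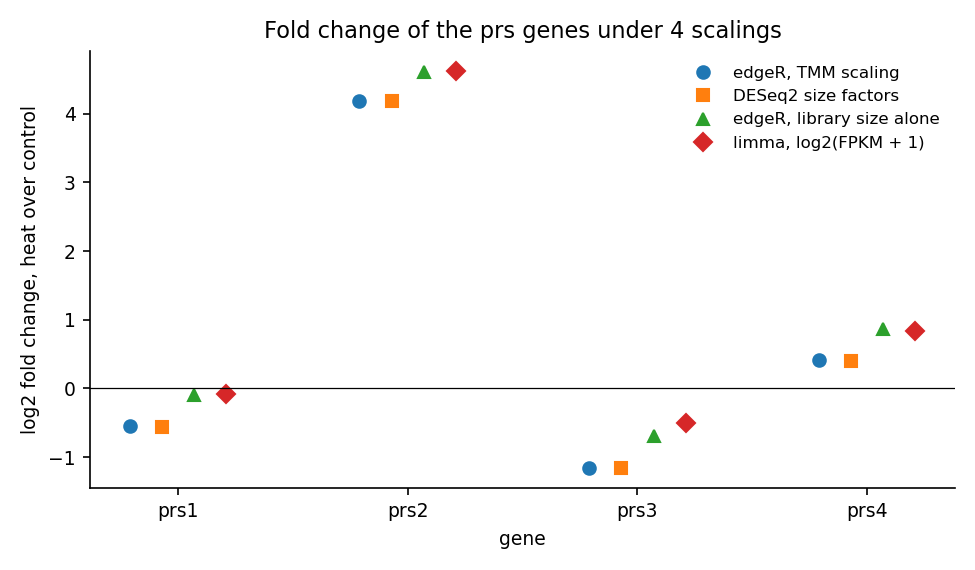
Log2 fold change of heat over control for prs1 to prs4 with edgeR on TMM-scaled counts (circles), DESeq2 (squares), edgeR on library size alone (triangles) and limma on log2(FPKM + 1) (diamonds). prs2 lies at 4.18 to 4.63 under all 4, and prs1 lies at -0.55 with TMM scaling but at -0.10 under library size alone.

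Shares within the family do not depend on the scaling between libraries, since they are taken inside each library. On FPKM, prs2 made up 89.3%, 86.4% and 86.6% of the family total in heat libraries 1 to 3 and 35.4%, 26.5% and 21.2% in control libraries 1 to 3. The shares of the groups lay far apart, at 87.4% ± 1.64 in heat and 27.7% ± 7.19 in control, a difference of 59.7 percentage points. The share of prs4 was 7.45%, 10.1% and 9.22% in heat and 33.6%, 40.1% and 45.0% in control. prs1 had 2.98%, 3.25% and 3.70% in heat and 26.3%, 28.4% and 30.1% in control.

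The leading gene of the family was thus prs2 in each heat library, whereas no single gene led in control. In control libraries 2 and 3 prs4 had the highest FPKM, and in control library 1 prs2 did, by 33.6 against 31.9 FPKM for prs4. The prs3 share was 0.285%, 0.276% and 0.527% in heat and 4.67%, 5.02% and 3.73% in control, the smallest in every library. On raw reads, where gene length is not taken out, the prs2 share was 89.9%, 87.2% and 87.4% in heat and 36.6%, 27.5% and 22.1% in control. The 95% counting interval of the share on raw reads (exact binomial) was, for prs2, at its widest 21.0% to 23.3% in control library 3, narrower than the spread between the control libraries. The lead in control library 1 was the same on reads, with 3125 for prs2 and 2634 for prs4.

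**Figure D4:**
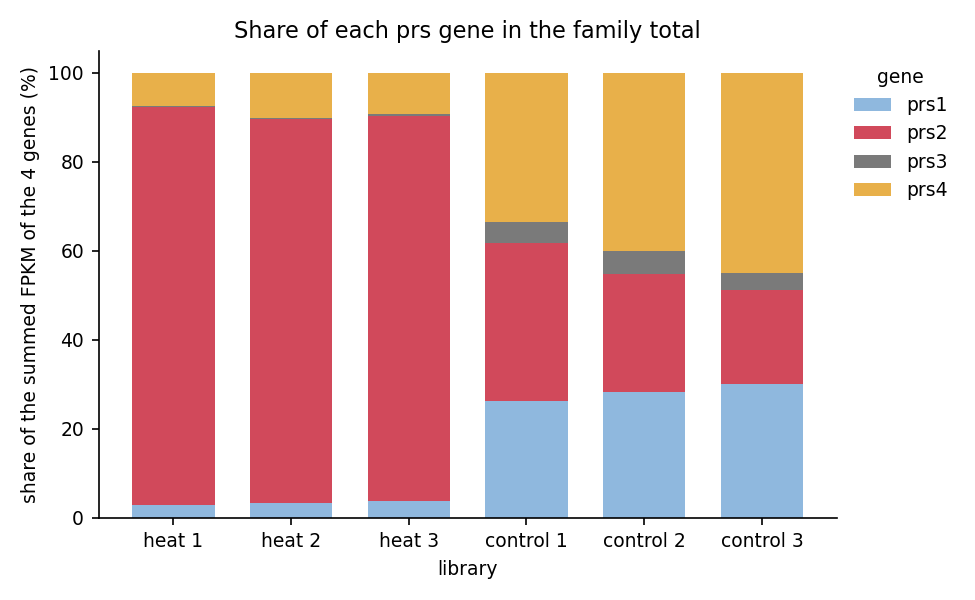
Share of each of prs1 to prs4 in the summed FPKM of the 4 genes (%), as stacked bars for heat libraries 1 to 3 (left) and control libraries 1 to 3 (right). prs2 fills 86.4% to 89.3% of each heat bar and 21.2% to 35.4% of each control bar, where prs1 and prs4 take most of the rest.

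By class, the phosphate-dependent pair prs1 and prs2 held 90.7% ± 1.39 of the family FPKM in heat and 56.0% ± 5.31 in control. The phosphate-independent pair prs3 and prs4 held 9.29% ± 1.39 in heat and 44.0% ± 5.31 in control. The lower share of the second pair in heat went with no lower summed level. The summed FPKM of prs3 and prs4 was 59.1 ± 5.85 in heat and 34.9 ± 3.41 in control. On the TMM scale their sum was 78.2 ± 12.2 CPM in heat and 63.5 ± 3.06 CPM in control, where the groups overlapped. Within each pair the log2 fold changes had opposite signs. They were -0.55 for prs1 and 4.19 for prs2, and -1.15 for prs3 and 0.41 for prs4.

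The summed reads of all 4 genes were 1119, 969 and 755 CPM in heat libraries 1 to 3 and 175, 160 and 136 CPM in control libraries 1 to 3 on the TMM scale. The group means, 948 ± 183 CPM in heat and 157 ± 19.4 CPM in control, differed 6.04-fold. The group means of prs2 alone lay 791 CPM apart, as did those of the sum. Without prs2, prs1, prs3 and prs4 together had 113, 124 and 95.4 CPM in heat and 111, 116 and 106 CPM in control, so that the groups overlapped and their means, 110.5 ± 14.2 CPM in heat and 110.8 ± 4.92 CPM in control, were 0.31 CPM apart. This near equality held on the TMM scale but not on FPKM or on library size alone. The sum was not computed with the size factors of DESeq2. As summed FPKM the 3 genes had 80.1 ± 5.84 in heat and 57.4 ± 6.31 in control, with no overlap.

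Ratios between members, also taken inside each library, separated the groups for most pairs. The FPKM ratio of prs2 to prs1 was 29.9, 26.6 and 23.4 in heat and 1.35, 0.933 and 0.706 in control. The ratio of prs2 to prs4 was 12.0, 8.53 and 9.39 in heat and 1.06, 0.661 and 0.472 in control. prs2 thus stood above both in every heat library and in control library 1, and below both in control libraries 2 and 3. Without prs2, the order of the other members was the same in all 6 libraries: prs4 above prs1 above prs3. The ratio of prs4 to prs1 was 2.70 ± 0.356 in heat and 1.40 ± 0.111 in control without overlap, and that of prs1 to prs3 was 9.76 ± 2.48 in heat and 6.44 ± 1.39 in control with overlap.

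The spread between libraries of a group differed among the members. The biological coefficient of variation that edgeR estimated was 16.7% for prs1, 18.3% for prs4, 27.9% for prs2 and 30.9% for prs3, against a median of 27.7% over all tested genes. prs2 in control was the widest of these in relative terms, with 13.5 to 33.6 FPKM.

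Genes of the sugar phosphate and nucleotide pathways around PRPP could be followed only as far as the reference table names them. Of 26 short names searched, 3 were found, and 1 of these, GPAT, was set aside because its synonym act1 gives it as the glycerol-phosphate acyltransferase of lipid synthesis. The remaining 2, RPE and PRK, which act on pentose phosphates, both fell, where 13.6% of all tested genes did, with a median log2 fold change of -1.87, against 0.01 over all tested genes. Neither makes or uses PRPP itself. The 7 genes of the green tissue list also all fell, with log2 fold changes of -3.69 to -2.05, and whether the falls share a cause was not tested. RPE (LOC110799621), ribulose-phosphate 3-epimerase, which exchanges xylulose and ribulose phosphates, fell to 129 ± 20.0 CPM in heat, against 481 ± 56.0 CPM in control (log2 fold change -1.90, SE 0.19, edgeR adjusted p = 0.00106). PRK (LOC110791203), phosphoribulokinase, which draws ribulose 5-phosphate into carbon fixation, fell to 121 ± 4.85 CPM in heat, against 435 ± 38.8 CPM in control (log2 fold change -1.85, SE 0.15, edgeR adjusted p = 0.000615). Both calls held under every one of the 12 alternatives run.

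A further 6 named genes of the oxidative pentose phosphate pathway, of one-carbon supply to purines and of nucleoside diphosphate formation were added by their names once the reference table could be read. Of these, 5 fell and 1 did not pass, beside 13.6% lower among all tested genes, with a median log2 fold change of -0.80. Under library size alone and with each limma fit, 2 of the 6 passed. Without control library 2, 3 of the 6 passed, and without heat library 1 or heat library 3, 2 did. The plastid 6-phosphogluconate dehydrogenase pgdP (LOC110778317), which releases ribulose 5-phosphate, fell to 12.9 ± 6.55 CPM in heat, against 58.6 ± 8.63 CPM in control (log2 fold change -2.19, SE 0.38, edgeR adjusted p = 0.00756). Its cytosolic counterpart pgdC (LOC110804151) had 42.6 ± 4.00 CPM in heat and 68.9 ± 14.1 CPM in control (log2 fold change -0.69, SE 0.18, edgeR adjusted p = 0.0325), a call that held under 3 of 12 alternatives and, of the fits that left out 1 library, only in that without control library 1. FTHFS (LOC110797363), formate-tetrahydrofolate ligase, which provides one-carbon units, had 45.6 ± 6.48 CPM in heat and 84.3 ± 13.0 CPM in control (log2 fold change -0.89, SE 0.18, edgeR adjusted p = 0.0122) and held under 8 of 12. It was lost under library size alone, where the log2 fold change was -0.40, with both limma fits and without heat library 1.

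The 3 nucleoside diphosphate kinases, which pass phosphate between nucleotides, did not all pass. NDPK2 (LOC110774835) fell to 19.9 ± 9.64 CPM in heat, against 60.7 ± 10.3 CPM in control (log2 fold change -1.61, SE 0.35, edgeR adjusted p = 0.0164), and lost the call only without heat library 3. NDPKIII (listed as NDK4) had 47.4 ± 7.34 CPM in heat and 78.0 ± 16.9 CPM in control (log2 fold change -0.72, SE 0.20, edgeR adjusted p = 0.0391), a call that held under 4 of 12 alternatives and was lost without control library 1, control library 2, heat library 1 or heat library 3. NDPK1 (LOC110803934) had 179 ± 50.2 CPM in heat and 239 ± 63.7 CPM in control (edgeR adjusted p = 0.294). All 8 of these genes had a log2 fold change below 0 with TMM scaling, and under library size alone NDPK1 stood above 0, at 0.05.

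The genes that lie next to the members were compared as a measure that the choice of members had not used. Of the 5 protein-coding genes on each side of each member in the gene order of the BTI_SOV_V1 table, 40 in all, 28 were tested. The build behind the counts is unknown, so adjacency may differ there. Of these, 3 were higher, 4 lower and 21 did not pass. The 7 calls were 25.0% of the tested neighbours, beside 25.2% of all tested genes, and 3 were left without control library 2 or without heat library 1.

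The neighbours named here were picked because they passed or, beside prs2 only, because they lay closest to the member. Beside prs2, 9 of 10 neighbours were tested, and 2 were higher and 1 lower. The next gene after it in this order, LOC110792428, had 18.6 ± 2.83 CPM in heat and 8.45 ± 1.41 CPM in control (log2 fold change 1.14, SE 0.20, edgeR adjusted p = 0.00819), and it passed under all 12 alternatives run. The gene beyond that, LOC110792420, had 37.1 ± 0.202 CPM in heat and 26.7 ± 1.38 CPM in control (log2 fold change 0.48, SE 0.12, edgeR adjusted p = 0.0275), a call that was lost when any library but heat library 2 was left out. On the other side, LOC110792441 was at 0.701 ± 0.393 CPM in heat and 0.400 ± 0.228 CPM in control and did not pass (edgeR adjusted p = 0.425), while LOC110792457 was lower (log2 fold change -0.75, SE 0.19, edgeR adjusted p = 0.0287), though not without control library 2, heat library 1 or heat library 2. The largest log2 fold change among the tested neighbours of prs2 was 1.88, with an SE of 1.07, against 4.19 for prs2 itself.

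Beside prs3, 2 of 6 tested neighbours were lower. LOC110799230, the next gene after prs3, was much the more abundant of the pair, with 1430 ± 165 CPM in heat and 4785 ± 656 CPM in control (log2 fold change -1.74, SE 0.22, edgeR adjusted p = 0.00252). The other was LOC110793088 (log2 fold change -1.26, SE 0.19, edgeR adjusted p = 0.00519), and both passed under all 12 alternatives. Beside prs1, 1 of 5 tested neighbours was lower, LOC110793297 (log2 fold change -0.55, edgeR adjusted p = 0.0378), and beside prs4, 1 of 8 was higher, LOC110783963 (log2 fold change 0.63, edgeR adjusted p = 0.0425). The LOC110793297 call held, of the fits without 1 library, only without control library 3, and the LOC110783963 call only without heat library 2. Whether any of these genes overlaps a member was not examined, and whether the counting used strand is unknown.

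**Figure D5:**
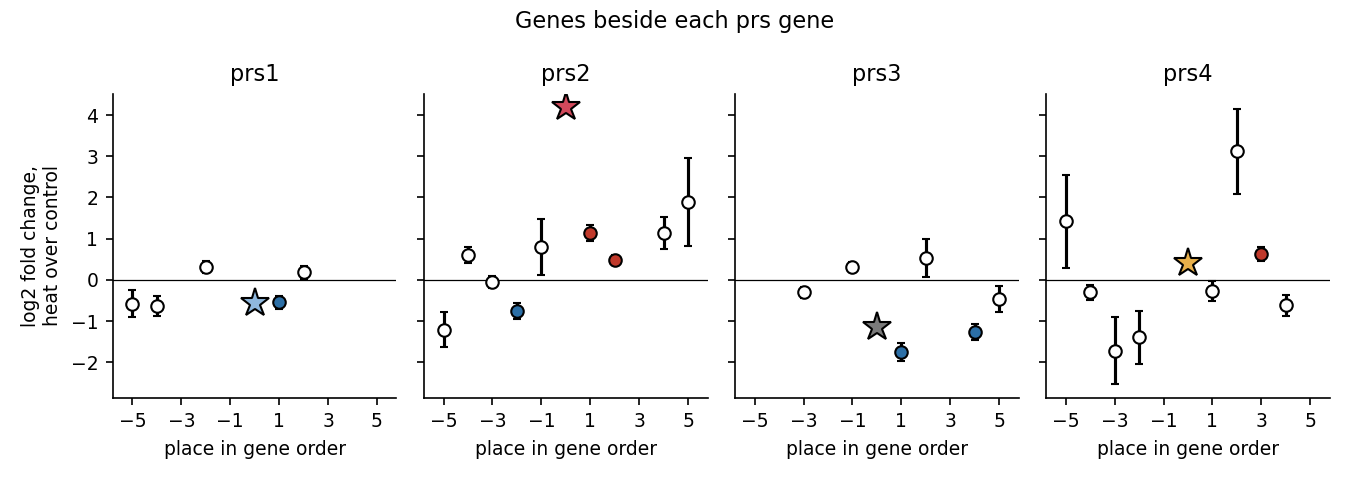
Log2 fold change of heat over control (SE bars) of the tested genes among the 5 on each side of each member, by their place in the gene order. Filled circles passed at an adjusted p below 0.05 (red higher, blue lower), open circles did not, and the star at the centre is the member. The neighbours of prs2 lie between -1.21 and 1.88, below prs2 at 4.19.

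The genes whose pattern over the 6 libraries was most like that of each member were found by the root mean square difference of mean-centred log2(CPM + 1), among 10766 genes with a mean of at least 10 CPM. The measure takes in the size of the change as well as its direction. The added 1 makes the change smaller for a gene at low CPM, such as prs3 (3.10 CPM in heat and 6.89 CPM in control). Of the 10766 genes, 2818 lay within 0.3 of prs1, 794 of prs3 and 3778 of prs4, against 5 of prs2. A small distance was thus common for the members other than prs2. The nearest to prs2 was LOC110776294, at 0.169, with 446 ± 61.2 CPM in heat and 24.2 ± 7.41 CPM in control. The second was LOC110783912, at 0.189, with 1340 ± 234 CPM in heat and 78.5 ± 34.2 CPM in control. For prs1 the nearest were LOC110777035 (0.027) and LOC110802684 (0.031), for prs3 LOC110778251 (0.057) and LOC110787277 (0.073), and for prs4 LOC110792313 (0.037) and LOC110794987 (0.047). The reference table gives no name for these 8 genes.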

How the data were processed

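Gene expression had been measured by RNA sequencing in 6 libraries, 3 of heat and 3 of control. Per the submitters' processing notes, HISAT2 2.0.4, HTSeq 0.9.1 and DESeq 1.18.0 were used, and the role of each is not stated. Not given in the sources used here are the build and annotation, strand, and how multi-mapped reads were treated. The first deposited table holds raw read counts per gene by the authors, with totals of 42.3 to 56.8 M. The second holds FPKM by the authors, and for 20305 genes with reads in every library it equalled count over 1 length per gene and the library total, within a relative tolerance of 1e-06.

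Counts were tested with edgeR 4.0.16 in R 4.3.3 (quasi-likelihood test, TMM scaling, edgeR's filter on low counts, group as the only term, two-sided, Benjamini-Hochberg over 20145 genes, threshold 0.05). SE is that of the log2 fold change of heat over control. It was derived as the absolute log2 fold change over the square root of the quasi-likelihood F statistic. Alternatives were DESeq2 1.42.0, limma 3.58.1 on log2(FPKM + 1) and log2(FPKM + 0.1), library size alone, no filter, the replicate number as a block, and leaving out each library. The procedure was tested on simulated data. The simulation built in no difference in library composition beyond the genes it changed, so it does not bear on the choice of scaling. Counting intervals are at the 95% level and cover counting error only. Of 30732 numbered genes, 25304 matched the BTI_SOV_V1 table, which was used for names and neighbours only. Named were the members, the matched genes around PRPP (1 further gene is not reported here), the 2 nearest patterns per member and, added later, 6 further names and the neighbours. The members and lists were chosen with earlier results of these data known. Planned searches for alike proteins and promoter motifs were not run, since no sequence was used here.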

Additional observations from a re-analysis of the deposited data

How the results depend on the processing

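Depth limits prs3 most, with 124 to 386 reads a library. In every alternative run, each member kept the sign of its log2 fold change, and prs2 kept its call as higher. These fits reuse the libraries on which the members were chosen, so calls of members are description only. On library size alone and with both limma fits, prs1 and prs3 did not pass and prs4 passed as higher. With the replicate number as a block, and without control library 1, control library 2 or heat library 1, only prs2 passed. The prs3 call was also lost without heat library 2, and the prs1 call without heat library 3. With library size alone, limma on log2(FPKM + 1) and limma on log2(FPKM + 0.1), in that order, prs1 stood at -0.10, -0.086 and -0.089, prs3 at -0.70, -0.50 and -0.65, and prs4 at 0.86, 0.84 and 0.86, and prs2 with both limma fits at 4.63 and 4.69. The log2 ratio of the family total was 2.60 on the TMM scale, 3.0 on FPKM and 3.04 on library size alone, and that of prs1, prs3 and prs4 together was -0.004, 0.48 and 0.45. The prs1 share, heat minus control, differed by -24.9 percentage points on FPKM and -26.9 on raw reads. Of all genes, 5074 passed in the reported fit, 7759 on library size alone, 8012 and 8119 with limma, and 2375 to 4340 without a library (2375 without control library 2, 2694 without heat library 1). Of the neighbours, 7 passed in the reported fit, 11 on library size alone, 11 with DESeq2, 11 and 12 with limma, and 3 to 8 without a library. Of the 6 added names, 5 passed in the reported fit, 2 on library size alone and with each limma fit, and 2 to 4 without a library. RPE and PRK passed under all 12 alternatives. The cause of these shifts was not tested. With the replicate number as a block, 2628 genes, 3 neighbours and 3 added names passed. Deviations of same-numbered libraries correlated at -0.33 to -0.12 and 0 of 6 libraries correlated best with its own number, so no pairing by number was seen. With 3 libraries a group, each centred on its group mean, these correlations depend on one another and cannot settle whether the samples were paired. The share with further copies of the family could not be computed, since no protein sequences were used here.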
